A study of Mus musculus with 6 samples.

Results

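The collagens, laminins and integrins described here, in forebrain cells sorted for Prominin1, are the protein-coding genes of the deposited table whose symbols name a numbered collagen chain, a laminin alpha, beta or gamma chain, or an integrin alpha or beta chain. This symbol rule found 76 of the 52636 genes in the table, made up of 44 collagen, 11 laminin and 21 integrin genes. It leaves out the leukocyte integrin alpha chains that are named with letters, such as Itgal and Itgam. The symbol rule itself reads no expression value, although the families were chosen with earlier results of these data known.

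RNA was sequenced from pools of forebrain cells of mouse embryos at stage E12.5, sorted by FACS for Prominin1, a surface protein of neural progenitors. Embryos called SmadNes carried the Cre transgene (Nestin:Cre+/0), and their control littermates did not (Nestin:Cre0/0). Each genotype had 3 pools, named SF3, SF4 and SF5_6 in both, so that each name gives a pair of 1 SmadNes and 1 control library. All embryos, controls included, carried 1 floxed and 1 wild-type allele of both Smad genes (Smad1wt/fl and Smad5wt/fl), so by label the groups differed in the Cre transgene alone. Nestin:Cre acts in neural progenitors and their progeny, and therefore not in every cell type that a forebrain preparation may hold. The background was a mixture of CD1, 129/ola and C57BL6. The labels give no number of embryos per pool and do not say what an SF name stands for.

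Radial glia span the wall of the embryonic forebrain and end in feet on the basement membrane under the meninges. That sheet is built from laminin heterotrimers of an alpha, a beta and a gamma chain and from a network of collagen IV, joined by nidogen and perlecan. Integrins are alpha-beta receptors through which the endfeet bind laminin, and dystroglycan is a second laminin receptor there. Fibrillar collagens, by contrast, are classically made by meningeal and other connective tissue cells, and collagen IV also by the cells of blood vessels. Smad1 and Smad5 carry signals of the bone morphogenetic proteins to the nucleus.

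Libraries held 32997423 to 40744672 assigned read pairs, of which the 76 genes took 0.261%, 0.164% and 0.363% in the SmadNes pools SF3, SF4 and SF5_6, against 0.208%, 0.187% and 0.318% in the control pools of the same names. Levels are given as counts per 1000000 counts (CPM) after TMM scaling, always in the order SF3, SF4, SF5_6, and 3 counts corresponded to at most 0.0909 CPM before that scaling. Smad5 had 388, 411 and 373 CPM in the libraries labelled SmadNes, against 289.6, 299.9 and 287 CPM in the control libraries, and Smad1 had 86.9, 92.9 and 85.7 CPM against 72.7, 77.8 and 76.1 CPM. Both targeted genes were thus higher, not lower, in the libraries labelled SmadNes. A count over the whole gene does not check the deletion, since a recombined allele can still be transcribed, and every direction below is that of the labels. Prom1, the gene of the sorted protein, had 110.0, 129 and 132 CPM in SmadNes and 106, 124 and 129 CPM in control libraries. All 12 radial glia markers had a mean above 1 CPM, and their summed level ran from 2237 to 2570 CPM in SmadNes and from 2090 to 2501 CPM in control libraries. The labels call the cells cortical radial glia, but the 10 neuron markers were also present. They summed to 4088 to 4849 CPM in SmadNes and 4099 to 5514 CPM in control libraries. Sums over different genes do not give the share of either cell type.

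Of the 76 genes, 8 had a mean of at least 100 CPM, 35 of at least 10 CPM and 56 of at least 1 CPM, and 20 stayed below 1 CPM. Col10a1, the collagen of hypertrophic cartilage, was at 0 in all 6 libraries. Col4a3, Col6a4, Col6a5, Col19a1, Itgb6 and Itgb7 were too low for the genotype test, and 69 genes passed its filter on low counts. A gene that passed this filter only through the group where it was higher would have been favoured, so the tested genes are not all members.

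Per kilobase of exon, the highest of the 76 was Itgb1, at 48.0 CPM per kb. It encodes the beta chain shared by the collagen and most laminin receptors among the integrins. Col3a1 and Col1a1, fibrillar collagens of loose connective tissue, followed at 32.4 and 27.1 CPM per kb. Col2a1, the fibrillar collagen of cartilage, which neuroepithelium also transcribes in the embryo, stood at 16.5 CPM per kb. Next came Col4a1 at 15.7, Itga6 and Col18a1 at 13.8 each, Lamc1 at 13.2, Col1a2 at 12.4, Col4a2 at 11.5 and Lamb2 at 10.2 CPM per kb. The list therefore mixed the parts of the pial basement membrane and its receptor with fibrillar collagens of connective tissue.

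Between the highest and the lowest of the 6 libraries, Itgb1, Itga6, Itgb8, Itgav, Itga3 and Itga5 differed by 1.14-fold (Itgb1) to 1.58-fold (Itga5). Other receptor chains ranged more widely, such as Itgb5 at 3.71-fold and the low-level Itgb3 at 4.004-fold. Itgb1 had 196, 197 and 207 CPM in SmadNes and 189.8, 182 and 205 CPM in control libraries. Itga6, the alpha chain of laminin receptors, had 129, 141 and 123 CPM in SmadNes, against 114, 132 and 109 CPM in control libraries. The groups overlapped for both genes, although the SmadNes library was the higher in each pair. Itgb8, which pairs with Itgav to bind latent TGF-beta and is made by radial glia, had 54.3, 73.9 and 69.1 CPM in SmadNes and 51.3, 59.8 and 69.3 CPM in control libraries. Itgav itself had 40.9, 35.1 and 50.4 CPM in SmadNes, against 36.9, 38.2 and 47.3 CPM in control libraries. Itga3, an alpha chain of laminin receptors, had 12.1, 12.99 and 12.6 CPM in SmadNes, against 11.8, 12.4 and 16.5 CPM in control libraries. Itga5, the alpha chain of the fibronectin receptor, had 14.8, 13.8 and 21.4 CPM in SmadNes, against 13.5, 13.8 and 20.8 CPM in control libraries. For these 4 genes too, the SmadNes and control values overlapped. Itgb5, a beta chain that pairs with Itgav, varied more, at 8.23, 3.31 and 12.1 CPM in SmadNes and 7.72, 3.55 and 12.3 CPM in control libraries, with nearly equal values in the 2 libraries of a name.

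Among the laminin chains, Lamc1, the gamma chain of most laminins, had 109, 95.1 and 133 CPM in SmadNes and 93.2, 91.7 and 131 CPM in control libraries. Lamb1 had 97.8, 62.9 and 93.7 CPM in SmadNes, against 80.1, 65.3 and 80.9 CPM in control libraries. Lamb2 had 57.2, 56.2 and 71.0 CPM in SmadNes, against 50.0, 58.1 and 79.2 CPM in control libraries. These beta and gamma chains differed by at most 1.59-fold between any 2 libraries. The alpha chains, which carry the main integrin-binding domain, were less uniform. Lama5 had 47.4, 48.8 and 48.0 CPM in SmadNes and 40.6, 50.2 and 52.4 CPM in control libraries. Lama1, the alpha chain of the embryonic laminin, had 58.5, 37.0 and 97.0 CPM in SmadNes, against 43.0, 44.3 and 76.7 CPM in control libraries. Lama2, known from muscle and the meninges, had 22.4, 5.92 and 35.7 CPM in SmadNes, against 14.8, 9.60 and 25.9 CPM in control libraries. Lama4, known from vessels and mesenchyme, had 11.8, 5.01 and 18.4 CPM in SmadNes, against 9.26, 6.08 and 12.4 CPM in control libraries. In Lama1, Lama2 and Lama4 the SmadNes library SF4 was the lowest and the SmadNes library SF5_6 the highest of all 6, while Lama5 had no such order. Lamc3 spread the widest of the laminin genes described here, at 16.5, 4.34 and 29.1 CPM in SmadNes and 8.94, 6.85 and 22.4 CPM in control libraries.

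Among the collagens, Col4a1 and Col4a2, the chains of the main collagen IV network, followed the same order. Col4a1 had 146, 39.7 and 209 CPM in SmadNes and 94.2, 65.1 and 149 CPM in control libraries. Col4a2 had 96.0, 26.1 and 131 CPM in SmadNes, against 60.9, 41.9 and 102 CPM in control libraries. Both were highest in the SmadNes library SF5_6 and lowest in the SmadNes library SF4, so the SmadNes group enclosed the control group. Col3a1 had 362, 98.7 and 598 CPM in SmadNes and 245, 166 and 437 CPM in control libraries. Col1a1, the main chain of collagen I, had 214, 66.2 and 269 CPM in SmadNes and 169, 113 and 237 CPM in control libraries. Its partner Col1a2 had 184, 57.5 and 248 CPM in SmadNes, against 134, 91.4 and 206 CPM in control libraries. The order of the 6 libraries was again that of Col4a1. Col6a3, a beaded filament chain of connective tissue, had 38.3, 11.1 and 55.9 CPM in SmadNes and 28.2, 18.8 and 41.6 CPM in control libraries. Itga11, an alpha chain of a collagen receptor of fibroblasts, had 8.73, 2.25 and 12.1 CPM in SmadNes and 4.92, 4.37 and 9.31 CPM in control libraries. Col2a1 and Col18a1 departed from this order. Col2a1 had 130.4, 145 and 183 CPM in SmadNes, against 124, 138 and 196 CPM in control libraries. Col18a1, a basement membrane collagen from which endostatin is cut, had 95.1, 83.4 and 126 CPM in SmadNes, against 70.6, 83.1 and 123 CPM in control libraries.

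**Figure D1:**
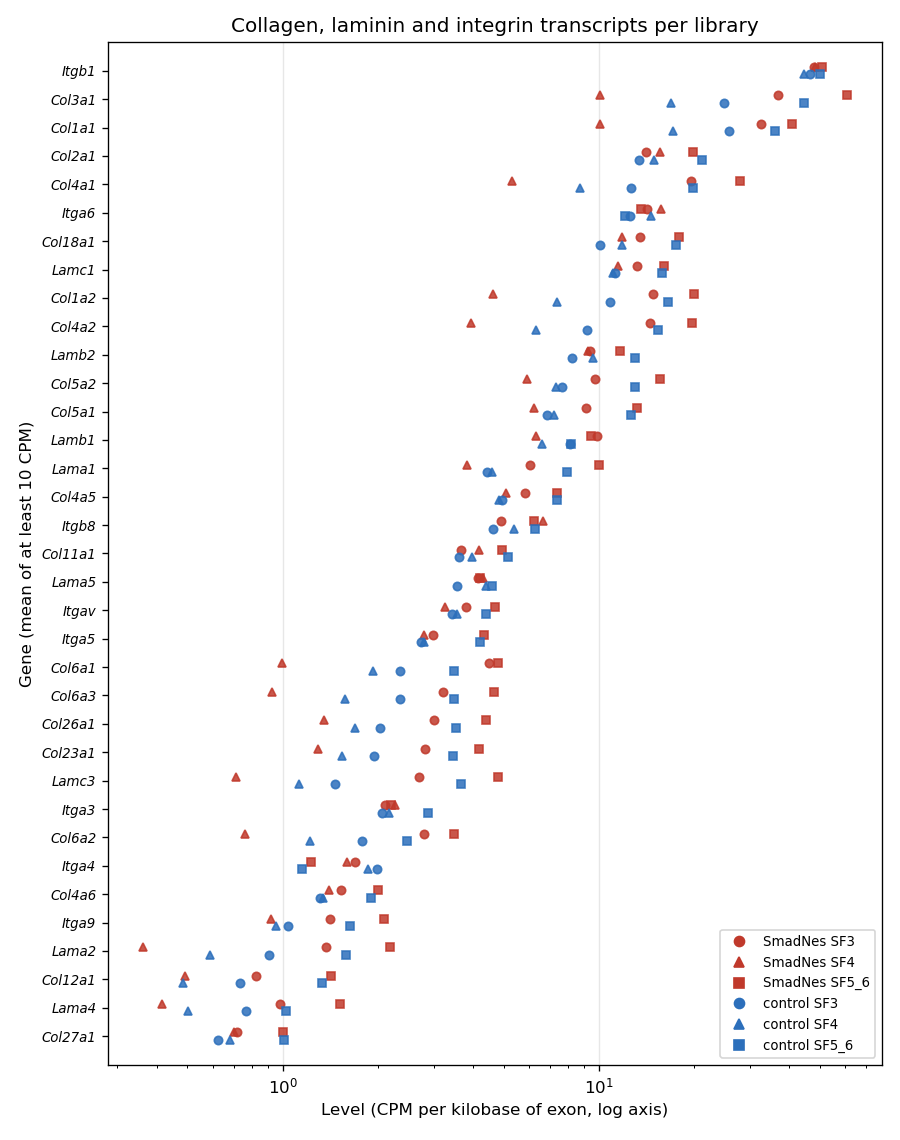
Level in CPM per kilobase of exon, on a log axis, of the 35 members that averaged 10 CPM or more, with 1 point per library (red for SmadNes, above blue for control, and 1 symbol for each pool name). Itgb1, with a mean of 48.0 CPM per kb, stands at the top with its 6 points close together, while the points of Col3a1 and Col4a1 spread widely in both colours.

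The question the design puts to these genes is whether their levels differ between Prominin1-sorted pools of SmadNes and control embryos. With edgeR's quasi-likelihood test and Benjamini-Hochberg adjustment over 16869 genes, no collagen, laminin or integrin passed an adjusted p of 0.05 in either direction (0 of 69), as against 0% of all genes tested. At an unadjusted p below 0.05 the count was also 0 of 69, against 1.05% of all genes. DESeq2 and limma-voom called 0 of 69 as well. When the pool name was added to edgeR's fit as a replicate block, 0 of 69 passed, against 0.0237% of all genes, and 4 had an unadjusted p below 0.05, against 6.23% of all genes. These 4 were Itga6, Col16a1, Itga9 and Lamb1, all with a positive log2 difference in that fit. Over all genes tested, 469 were higher and 582 lower in SmadNes at that unadjusted p. In pair SF4, Itga9 and Lamb1 had lower values in SmadNes. Itga6 averaged 131 ± 9.59 CPM in SmadNes and 118 ± 12.1 CPM in control libraries (SD, n = 3 each). With the block it differed by 0.15 on the log2 scale, with an SE of 0.037 and an adjusted p of 0.435 by edgeR. Col16a1, a chain associated with fibrils, had 10.8, 7.46 and 12.96 CPM in SmadNes and 9.37, 6.20 and 9.69 CPM in control libraries, with an adjusted p of 0.582 with the block. Itga9, an alpha chain that binds tenascin C, had 10.9, 7.04 and 16.0 CPM in SmadNes and 7.98, 7.32 and 12.54 CPM in control libraries, with an adjusted p of 0.771 with the block.

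The median log2 difference, SmadNes minus control, was 0.09 over the 69 genes, with 52 positive and 17 negative, and -0.000377 over all genes tested. It was 0.11 for collagens, 0.10 for laminins and 0.06 for integrins. Counts over pairs showed how unevenly this arose. Values were higher in SmadNes in 59 of the 69 genes in pair SF3, in 28 in pair SF4 and in 42 in pair SF5_6. The median pair difference was 0.23 in SF3, -0.12 in SF4 and 0.08 in SF5_6 on the log2 scale. Over all genes tested it was 0.00997, 0 and -0.0112. Higher in all 3 pairs were 9 of 69, close to the 13.8% share of all genes, and 2 were lower in all 3, against 14.3% of all genes. The 9 were Itgb1, Itga6, Itga5, Lamc1, Col18a1, Col16a1, Col4a6, Col8a1 and Col12a1 (Col4a6, Col8a1 and Col12a1 are named because of these values). Another 27 genes were higher in SF3, lower in SF4 and higher in SF5_6. Neither this pattern nor the signs of single pairs were counted over all genes.

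**Figure D2:**
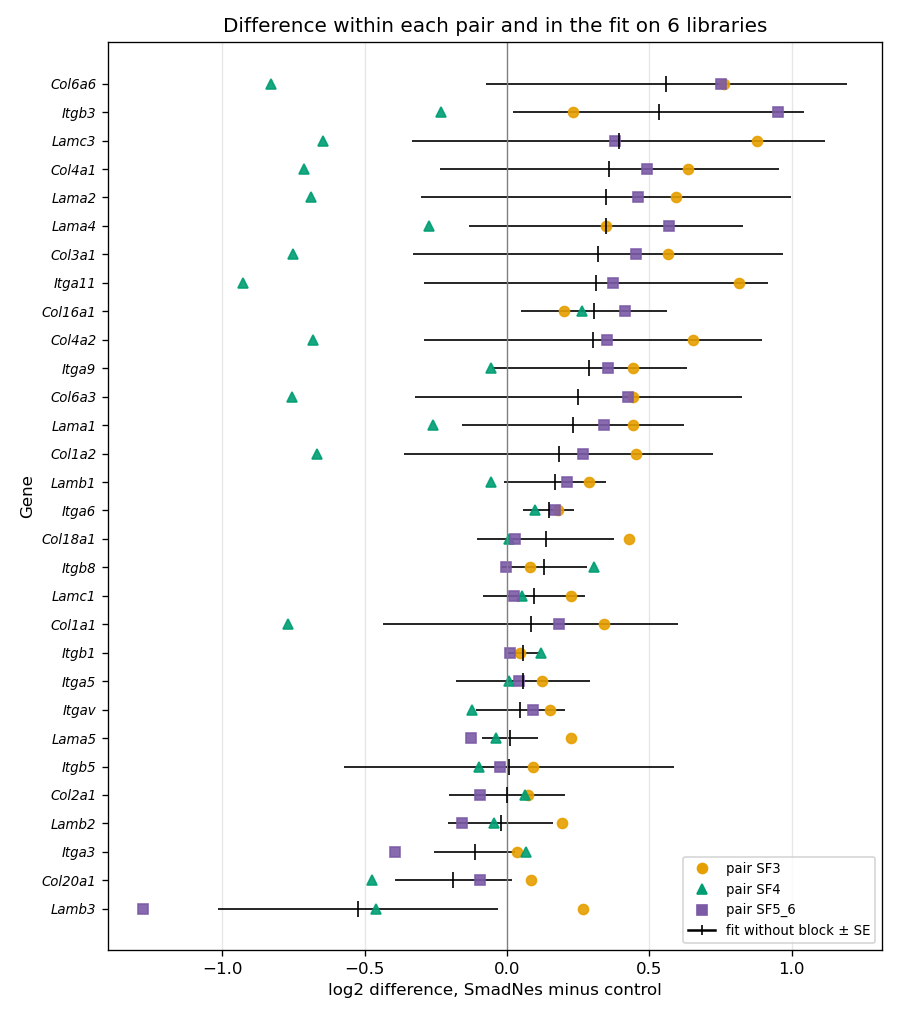
Difference on the log2 scale, SmadNes minus control, of the 30 named genes, with coloured symbols for log2(CPM + 0.1) within each of the pairs SF3, SF4 and SF5_6 and a black bar for edgeR's fit without the block ± SE. For Col4a1 the pair differences are 0.63, -0.71 and 0.49, and for Col3a1 0.56, -0.75 and 0.45, with pair SF4 on the other side of 0.

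The calls changed when pair SF4 was left out. With the block kept, the 2 remaining pairs gave 10 members called, 8 of them collagens, all higher in SmadNes, against 0.193% of all genes called higher in that fit. They were Col4a1 and Col4a2 of the basement membrane, Col1a2, Col3a1 and Col5a2 of fibrils, Col6a1, Col6a2 and Col6a3 of beaded filaments, and the laminin alpha chains Lama1 and Lama2. Col4a1 was higher by 0.56 ± 0.055 on the log2 scale (SE, n = 2 pairs, adjusted p = 0.00115 by edgeR), Col3a1 by 0.51 (adjusted p = 0.00188) and Col6a1 by 0.69 (adjusted p = 0.0313). Of the 12 meningeal and mesenchymal markers, only Lum and Dcn were called in the same fit. Both were higher in SmadNes, by 0.55 and 0.50 (adjusted p = 0.00971 and 0.0344). Of the 10 erythroid markers only Hbb-bt was called, lower in SmadNes, with a log2 difference of -0.80 (adjusted p = 0.0186). The erythroid markers summed to 359, 123 and 666 CPM in SmadNes and 379, 116 and 1126 CPM in control libraries. The part of these cells in the result was not tested. In pair SF4 all 10 members had lower values in SmadNes. With that pair in the fit none of the 10 was called, and without pair SF3 or without pair SF5_6 no member was called either. Why the calls changed was not tested.

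The larger contrast in these genes ran between the pool names. In a fit with genotype and pool name, edgeR's test of the pool name called 50 of 70 members at an adjusted p of 0.05, or 71.4%, against 28.7% of all genes (here Col6a4 was also tested). By family these were 30 of 40 collagens, 8 of 11 laminins and 12 of 19 integrins. Of the 50, 43 were highest in SF5_6 and 40 were lowest in SF4, where over all 4992 genes called by pool name 2374 were highest in SF5_6 and 1549 were lowest in SF4. SF5_6 was the highest pool in both genotypes for 47 of the 70 members and SF4 the lowest in both for 37, and 28 members had both. These 3 counts were not made over all genes, so they cannot be set against a general pool difference. The median span between the highest and the lowest pool mean was 0.96 on the log2 scale for the 70 members and 0.25 for all genes. Col3a1 averaged 304, 132 and 517 CPM in SF3, SF4 and SF5_6 over both genotypes (adjusted p = 0.0019), and Lamc3 averaged 12.7, 5.59 and 25.8 CPM (adjusted p = 0.00121). Itgb5 had the same order at 7.98, 3.43 and 12.2 CPM (adjusted p = 4.39e-05). The genes of the endfoot receptor, Itgb1 and Itga6, had smaller spans between pool means, at 0.12 and 0.24 on the log2 scale. Itgb1 had the same order but did not pass, at 192.8, 189.6 and 206 CPM (adjusted p = 0.148). Itga6 passed with another order, highest in SF4, at 121, 137 and 116 CPM (adjusted p = 0.00856). The laminin chain Lama5 did not pass, at 44.0, 49.5 and 50.2 CPM (adjusted p = 0.188), nor did Itga3, at 11.9, 12.7 and 14.5 CPM (adjusted p = 0.242).

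Summed over families, the collagens had 1707, 835 and 2436 CPM in SmadNes and 1281, 1054 and 2052 CPM in control libraries, a range of 2.92-fold. The laminins had 422, 316 and 528 CPM in SmadNes and 342, 334 and 483 CPM in control libraries, a range of 1.67-fold. The integrins had 526, 529 and 569 CPM in SmadNes and 486, 502 and 549 CPM in control libraries, a range of 1.17-fold. The summed level thus varied most in the collagens and least in the integrins, whose sum is carried by Itgb1, Itga6 and other abundant chains. Gene by gene the order of laminins and integrins turns, with a median span between pool means of 1.31 on the log2 scale for collagens, 0.62 for integrins and 0.56 for laminins. Within the collagens, the summed network chains ranged 5.38-fold, but at only 1.79 to 9.64 CPM, mostly from Col8a2. The summed beaded filament chains ranged 4.86-fold, the basement membrane chains 3.61-fold, the transmembrane chains 3.04-fold and the fibrillar chains 2.99-fold. The sum of the multiplexins, nearly all Col18a1, ranged 1.77-fold, and that of the FACIT chains, which associate with fibrils, 1.76-fold. The 12 meningeal and mesenchymal markers, none of them a collagen, summed to 168, 73.8 and 245 CPM in SmadNes and 117, 100.1 and 207 CPM in control libraries, a range of 3.32-fold. Their 6 libraries stood in the same order as the collagen sums, from SmadNes SF5_6 at the top to SmadNes SF4 at the bottom. Of their 11 tested genes, 10 were called by pool name, 9 highest in SF5_6 and 10 lowest in SF4. This was not particular to them, as 9 of 9 tested erythroid markers were called, 7 highest in SF5_6 and 9 lowest in SF4. Of 12 radial glia markers 10 were called, 7 highest in SF5_6 but 8 lowest in SF3. Of 10 neuron markers 8 were called, 5 highest in SF3 and 6 lowest in SF5_6. The 10 endothelial markers summed to 20.4 to 23.9 CPM in SmadNes and 18.2 to 24.6 CPM in control libraries, and 7 of them had a mean below 1 CPM. The 8 pericyte and mural markers summed to 122 to 184 CPM in SmadNes and 112 to 184 CPM in control libraries, with 2 of 7 tested called by pool name. No marker of these 3 lists was at 0 in every library. The part of such cells in the pool and genotype values of the collagens was not tested, and in pools of sorted cells fewer cells of a type and less RNA per cell cannot be told apart.

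**Figure D3:**
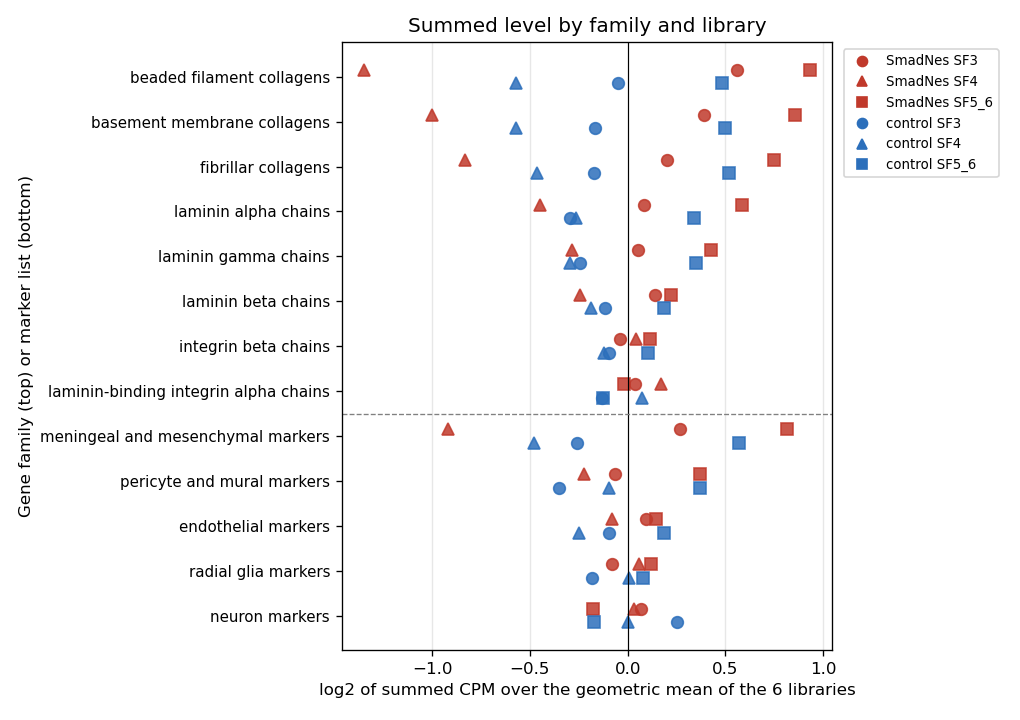
Summed CPM of gene families (top) and marker lists (bottom) in each library, as log2 of the ratio to the geometric mean of the 6 libraries, with 1 point per library (red for SmadNes, above blue for control, 1 symbol for each pool name). Basement membrane, fibrillar and beaded filament collagens spread like the meningeal and mesenchymal markers, which range 3.32-fold, while the integrin beta chains range 1.18-fold.

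Itgb2, the beta chain of the leukocyte integrins, was low and had its lowest values in SF4 in both genotypes. It had 0.631, 0.152 and 0.635 CPM in SmadNes and 0.868, 0.149 and 0.382 CPM in control libraries, from 5 to 30 counts (pool adjusted p = 0.0179). The 10 microglia and macrophage markers summed to 94.1, 14.7 and 71.1 CPM in SmadNes and 87.4, 16.8 and 66.3 CPM in control libraries. All 10 were called by pool name and were lowest in SF4, as were 40 of the 50 members called. A link between Itgb2 and these markers was not tested. Itga4, an alpha chain of the receptors for fibronectin and VCAM1, had pool means of 25.7, 24.2 and 16.6 CPM, lowest in SF5_6 (adjusted p = 0.00249). Both genes are named because of these values.

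Chains that form 1 trimer or 1 receptor were set against each other per length, in ratios chosen after the values had been seen. Col4a1 to Col4a2 stayed between 1.29 and 1.42, a range of 1.10-fold, although each gene ranged 5.27- and 5.001-fold. The ratio of Col4a5 to Col4a6, minor collagen IV chains, stayed between 3.61 and 3.90, a range of 1.08-fold, with the genes themselves at 1.52- and 1.53-fold. Col1a1 to Col1a2 lay between 2.05 and 2.39, with ranges of 4.06- and 4.31-fold of the genes. Other ratios ranged more widely. Col6a1 to Col6a2 lay between 1.31 and 1.60, with ranges of 4.82- and 4.59-fold of the genes, and Itga6 to Itgb1 between 0.241 and 0.329. Lama1 to Lamc1 ran from 0.333 to 0.623, Lamb1 to Lamc1 from 0.516 to 0.748, and Itgav to Itgb8 from 0.489 to 0.776. The last ratio ranged 1.59-fold, more than its genes at 1.43- and 1.44-fold. Itga6 to Itgb1 likewise ranged 1.36-fold, more than its genes at 1.29- and 1.14-fold. The 6 points of a ratio share their libraries, and no test was made of the difference between pairs.

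**Figure D4:**
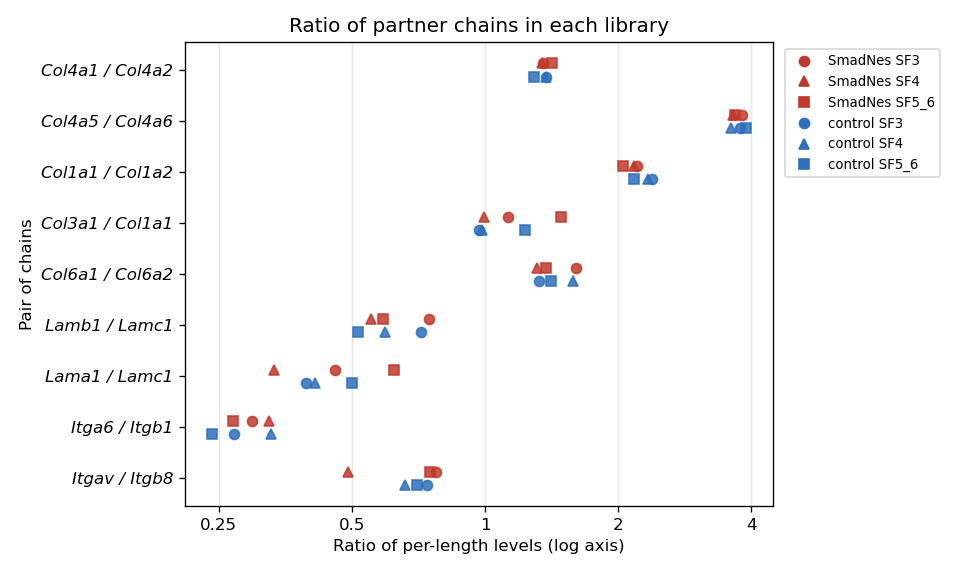
Ratio of partner chains per kilobase of exon, on a log axis, with 1 point per library (red for SmadNes, above blue for control, 1 symbol for each pool name). Col4a1 to Col4a2 stays between 1.29 and 1.42, while Lama1 to Lamc1 runs from 0.333 to 0.623.

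Both collagen IV pairs are head-to-head neighbours in the genome. On GRCm38, Col4a1 lies on the minus strand of chromosome 8 from 11198423 to 11312826 and Col4a2 on the plus strand from 11312805 to 11449287, so that the annotated genes overlap by 22 bases at their starts. Per the labels, libraries and quantification were stranded. Col4a5 and Col4a6 lie apart on chromosome X, with RefSeq starts 1343 bases from each other. By contrast, Col1a1 is on chromosome 11 and Col1a2 on chromosome 6. Sequences near the starts of 4 genes are shown because their ratio to a partner was among the narrowest (Col4a5, Col4a6, Col1a2) or because the gene spread most between pools among the fibrillar chains above 100 CPM (Col3a1). They are 120 bases each from RefSeq on GRCm38.p6, 5′ to 3′ on the gene's strand, without annotated exon, and capitals mark the GC-box letters GGGCGG and the letters TATAAA on either strand. The stretches of Col4a6 and Col3a1 end at the RefSeq start, that of Col4a5 ends 34 bases before it and that of Col1a2 125 bases before it. The Col1a2 stretch lies inside the annotated gene, which a longer transcript in GENCODE M21 begins at 4504814, and falls in an intron of that transcript.
Col4a5, plus strand, chrX:141475265-141475384: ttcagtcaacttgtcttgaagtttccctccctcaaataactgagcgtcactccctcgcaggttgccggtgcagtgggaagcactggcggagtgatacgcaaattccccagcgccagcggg
Col4a6, minus strand, chrX:141474077-141474196: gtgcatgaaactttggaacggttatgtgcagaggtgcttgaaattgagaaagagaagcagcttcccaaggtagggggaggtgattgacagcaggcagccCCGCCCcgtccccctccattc
Col1a2, plus strand, chr6:4505373-4505492: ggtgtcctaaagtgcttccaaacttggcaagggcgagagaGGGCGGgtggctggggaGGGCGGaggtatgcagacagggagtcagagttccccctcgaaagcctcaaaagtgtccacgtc
Col3a1, plus strand, chr1:45311418-45311537: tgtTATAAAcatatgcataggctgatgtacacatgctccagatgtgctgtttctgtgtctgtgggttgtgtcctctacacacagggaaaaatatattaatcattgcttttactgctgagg

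The GC-box letters GGGCGG, searched on both strands, stood in 54.8% of 62 promoter windows of 56 matched members and in 35.7% of all 32851 windows of 300 bases. The letters TATAAA stood in 8.06% of the members' windows and in 13.6% of all, and the letters CCAAT in 25.8% of the members' windows and 37.4% of all, also on both strands. No match in the sequences shown overlaps another. A match describes letters and is not a binding site.

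Other genes of matrix and adhesion, in lists that hold no member, gave no genotype call on 6 libraries by edgeR either. These were 14 other basement membrane proteins, 15 other integrin ligands, 20 enzymes and chaperones of collagen synthesis, 20 proteins of the integrin adhesion complex, 12 other matrix receptors and 13 tested proteases and inhibitors. With edgeR without the block, 0 in each list also had an unadjusted p below 0.05. Without pair SF4 and with the block, Nid2, Nid1 and Fbn2 were called higher in SmadNes, by 0.50, 0.41 and 0.35 on the log2 scale (adjusted p = 0.0224, 0.031 and 0.0344). Without pair SF5_6 and with the block, Loxl1 and Ltbp1 were called higher, by 0.38 and 0.33 (adjusted p = 0.0169 and 0.0362), against 0.361% of all genes called higher in that fit. Nid2, Fbn2 and Ltbp1 are named because of these calls. On 6 libraries the lists' median log2 differences were 0.08, 0.12, 0.05, 0.00485, 0.06 and -0.0096. Fn1, fibronectin, averaged 516 ± 129 CPM in SmadNes and 471 ± 119 CPM in control libraries (SD, n = 3 each). Nid1, the nidogen that links laminin to collagen IV, averaged 45.1 ± 28.4 CPM in SmadNes and 38.5 ± 17.5 CPM in control libraries. Dag1, dystroglycan, averaged 168 ± 9.28 CPM in SmadNes and 168 ± 17.4 CPM in control libraries. Adgrg1, a receptor for collagen III on radial endfeet, averaged 453 ± 82.4 CPM in SmadNes and 462 ± 52.0 CPM in control libraries. Reln, the secreted signal of Cajal-Retzius neurons, averaged 949 ± 256 CPM in SmadNes and 749 ± 163 CPM in control libraries. Hspg2, perlecan, had 189, 200.1 and 201 CPM in SmadNes, against 163, 179 and 205 CPM in control libraries. For these 6 genes the SmadNes and control libraries overlapped, and Reln, higher in SmadNes in 3 of 3 pairs, had an adjusted p of 0.0647 by edgeR with the block. By pool name, 12 of the 14 basement membrane proteins, 12 of the 15 ligands, 12 of the 20 biosynthesis genes, 9 of the 20 adhesion complex genes, 8 of the 12 receptors and 7 of the 13 proteases and inhibitors were called, against 28.7% of all genes. Nid1 had the order of Col4a1, at 49.7, 14.6 and 70.9 CPM in SmadNes and 34.3, 23.4 and 57.7 CPM in control libraries (pool adjusted p = 0.00161).

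The remaining named genes were low or close to even between the genotypes. Lamb3 averaged 0.233 ± 0.141 CPM in SmadNes and 0.338 ± 0.0433 CPM in control libraries. Itgb3, the beta chain of the platelet fibrinogen receptor and of a vitronectin receptor, averaged 1.33 ± 0.888 CPM in SmadNes and 0.922 ± 0.225 CPM in control libraries. Col20a1 averaged 1.03 ± 0.0543 CPM in SmadNes and 1.17 ± 0.195 CPM in control libraries, and Col6a6 averaged 1.44 ± 0.966 CPM in SmadNes and 0.981 ± 0.281 CPM in control libraries (SD, n = 3 each). None of these 4 had an unadjusted p below 0.05 with or without the block.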

How the data were processed

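Per the labels' protocols, stranded paired-end mRNA libraries were aligned to GRCm38 with STAR 2.5.3a and quantified per gene with RSEM 1.3.0 on GENCODE M15, and DESeq2 1.18 is listed, with no role, per the submitters' processing notes. The deposited values are the authors' expected counts per gene, already whole numbers. The test was edgeR 4.0.16 (quasi-likelihood, TMM, filterByExpr; R 4.3.3) on genotype without a block, over 3 SmadNes and 3 control libraries. CPM used TMM scaling, pair differences 0.1 CPM as pseudocount, and per-length values exon unions of GENCODE M21. In fits without the pool name, p-values set the genotype difference against the spread between pools of 1 genotype. In fits with the pool name as a term, they rest on the disagreement between same-named libraries left after genotype. With 1 pair left out, only 2 pairs give that disagreement. Floors of 3 counts cover counting error only.

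Alternatives were the replicate block, DESeq2 1.42.0, limma-voom (limma 3.58.1), other scaling, no filter, and libraries or pairs left out. The labels' protocols speak of pairs of samples. Same-named libraries deviated together over the genes tested (correlations 0.514, 0.709 and 0.743), so the names were taken to pair the samples. Different names gave at most -0.0396, but values were first centred within each genotype, which by itself pushes these correlations towards negative values. Among the 69 tested members alone, different names reached 0.0508, against 0.426, 0.768 and 0.781 for the same names. Libraries of 1 genotype differed by more than counting noise (chi-square per degree of freedom 11.5 to 47.9). Another design, genotype with pool name, tested the pools. Simulated data were used to test the scripts.

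Members and lists were chosen with earlier results of these data known. Named genes are fixed main chains, the smallest p in either fit, the largest pool spans and the highest levels per length.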

Additional observations from a re-analysis of the deposited data

How the results depend on the processing

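On 6 libraries no setting called a collagen, laminin or integrin by genotype, and the smallest adjusted p of a named member was 0.435. With the replicate block 0 of 69 were called, and without pair SF4 with the block 10. Over all genes, calls numbered 0 without the block, 4 with the replicate block, 7 with DESeq2, 14 with DESeq2 and the block and 1 with limma-voom. With the block they numbered 10 without pair SF3, 48 without pair SF4 and 149 without pair SF5_6. The cause was not tested. The median log2 difference of the members ran from -0.14 (without the SmadNes library SF5_6) to 0.30 (without the control library SF5_6) when 1 library was left out, against 0.09. Itgb3 ran from -0.12 (without the SmadNes library SF5_6) to 0.89 (without the SmadNes library SF4), against 0.53. A sign change was counted as a reversal only where the difference exceeded its SE. Of 450 alternative values of the 30 named members, 442 stayed on their side of the threshold with no reversal so counted, 7 passed it without pair SF4, and 1 reversed. The sign itself differed in 64 of the 450, of which 8 on all 6 libraries.

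By pool name, 50 of 70 members were called, or 71.4%, against 28.7% of all genes. DESeq2's likelihood ratio test called 38 of 70 (54.3%, against 18.4% of all genes), and limma-voom 51 of 70 (72.9%, against 28.9%). Without the filter 54 of 75 were called (72%, against 22.4%). Without 1 library 42 to 49 were called, or 58.3% to 68.1%, against 19.4% to 28.3% of all genes. Over all genes DESeq2 called 3193 of 17393 by pool name, against 4992. Depth limits the 20 members below 1 CPM, and 3 pools a genotype limit the rest.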
